A study of Mus musculus with 8 samples.

Results

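Lipoprotein lipase and the genes of fatty acid uptake are a set of 10 genes chosen by name: Lpl, its partners Gpihbp1, Lmf1 and Angptl4, the membrane proteins Cd36 and Slc27a1, the fatty acid binding proteins Fabp3, Fabp4 and Fabp5, and the acyl-CoA synthetase Acsl1. For each gene, the transcript cluster with the highest mean over all arrays stood for it, and 9 of the 10 had a cluster among the 19938 genes compared. Acsl1 was not named by the probe annotation used here and was read only from the authors' deposited table, which holds 116 probe sets of the 10 genes among 234873. By RefSeq, Lpl, Slc27a1 and Acsl1 lie on mouse chromosome 8, Fabp4 and Fabp5 on chromosome 3, Fabp3 on chromosome 4, Cd36 on chromosome 5, Gpihbp1 on chromosome 15, and Lmf1 and Angptl4 on chromosome 17.

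Triceps muscle of 8 mice aged 3 months on standard chow had been profiled, with 4 Nf1Prx1 mutants, 4 wild-type controls and 1 Affymetrix Mouse Gene 1.0 ST array per animal. Nf1 is the gene of neurofibromin, which switches Ras off, and Prx1 in the mutants' name refers to the limb enhancer that drives the Cre recombinase in the mesenchyme of the limb buds, so that cells outside that lineage keep Nf1. The floxed alleles, the strain background and whether controls carried Cre are not given in the sources used here. Levels are log2 intensities, and a difference of 1 on that scale is a 2-fold change. Nf1 itself averaged 8.72 ± 0.074 in Nf1Prx1 triceps and 8.85 ± 0.12 in control triceps (SD, n = 4 each), a difference of -0.13 with an adjusted p of 0.599 by limma.

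Array medians over all clusters lay between 7.23 and 7.39. Fast fibre markers averaged 12.8 to 13.4 over Nf1Prx1 arrays and 13.2 to 13.4 over control arrays, so skeletal muscle transcripts were abundant in each array. The arrays numbered 1 stood apart in both groups. The mean of 10 neutrophil markers was 9.39 in Nf1Prx1 1 and 6.45 to 6.98 in the other Nf1Prx1 arrays, against 8.94 in control 1 and 6.48 to 6.60 in the other controls. The mean of the brown adipocyte list had the same pattern. It was 9.21 in Nf1Prx1 1 and 8.06 to 8.17 in the other mutants, against 9.45 in control 1 and 8.07 to 8.12 in the other controls. Of that list, Ucp1, Cidea, Otop1 and Cox8b were highest in the arrays numbered 1 of both groups. Elovl3, Zic1, Dio2 and Cox7a1 were not. Nf1Prx1 2 also differed from the rest over all genes. Its mean r with the other arrays was 0.951, beside 0.949 for Nf1Prx1 1 and 0.968 to 0.979 for the remaining arrays. Sex-linked transcripts split each group evenly, with Xist high in Nf1Prx1 3 and 4 and in control 2 and 4. Arrays with the same number deviated together (r across genes 0.71, 0.57, 0.39 and 0.30). A fit that takes the number as a blocking factor, called the paired fit here, is therefore given beside the unpaired one. However, Nf1Prx1 4 deviated as much with control 3 (r = 0.303) as with control 4 (0.296). The pairs numbered 2 and 3 each join an array with high Xist and an array with low Xist. What a number stands for is not stated, and the paired fit removes the same deviations on which the pairing was judged, so that its p-values may be too small.

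Triglyceride-rich lipoproteins are too large to leave the capillary, and their fatty acids are freed at its wall by lipoprotein lipase. The enzyme is made by muscle fibres and adipocytes, folded with the help of Lmf1 in the endoplasmic reticulum, carried across the endothelium by Gpihbp1 and inactivated by Angptl4. Freed fatty acids enter cells with the help of Cd36 and Slc27a1, are carried in the cytosol by the Fabp proteins and are activated by Acsl1 to acyl-CoA for oxidation or storage. Fabp3 is the form typical of heart and skeletal muscle, Fabp4 that of adipocytes, and Fabp5 is made by adipocytes, macrophages and endothelial cells among others. In a bulk muscle sample, fewer or more cells of one type and less or more RNA per cell cannot be told apart.

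Of the 9 genes, 8 had a mean above the control mean in Nf1Prx1 triceps, and Fabp3 alone had a lower one. Fabp4 differed most, at 2.05-fold, followed by Fabp5 at 1.71-fold, Angptl4 at 1.66-fold, Slc27a1 at 1.56-fold and Lpl at 1.5-fold. None of the 9 passed the unpaired limma test after Benjamini-Hochberg adjustment over all genes, where 0% of the 19938 genes passed (smallest adjusted p 0.0746). An unadjusted p under 0.05 was reached by 3 of the 9, Lpl, Slc27a1 and Fabp4, and by 13.6% of all genes. In the paired fit 4 of the 9 passed, Angptl4, Slc27a1, Fabp4 and Fabp5, all higher in Nf1Prx1, where 3.36% of all genes passed as higher and 5% as lower. The median difference over the 9 genes was 0.58, beside -0.035 over all genes, and it was 0.29 without the single array Nf1Prx1 1. The values of the groups overlapped for each of the 9 genes. They were fully apart for 8.62% of all genes, a share so low that 0 of 9 says little about the set.

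**Figure D1:**
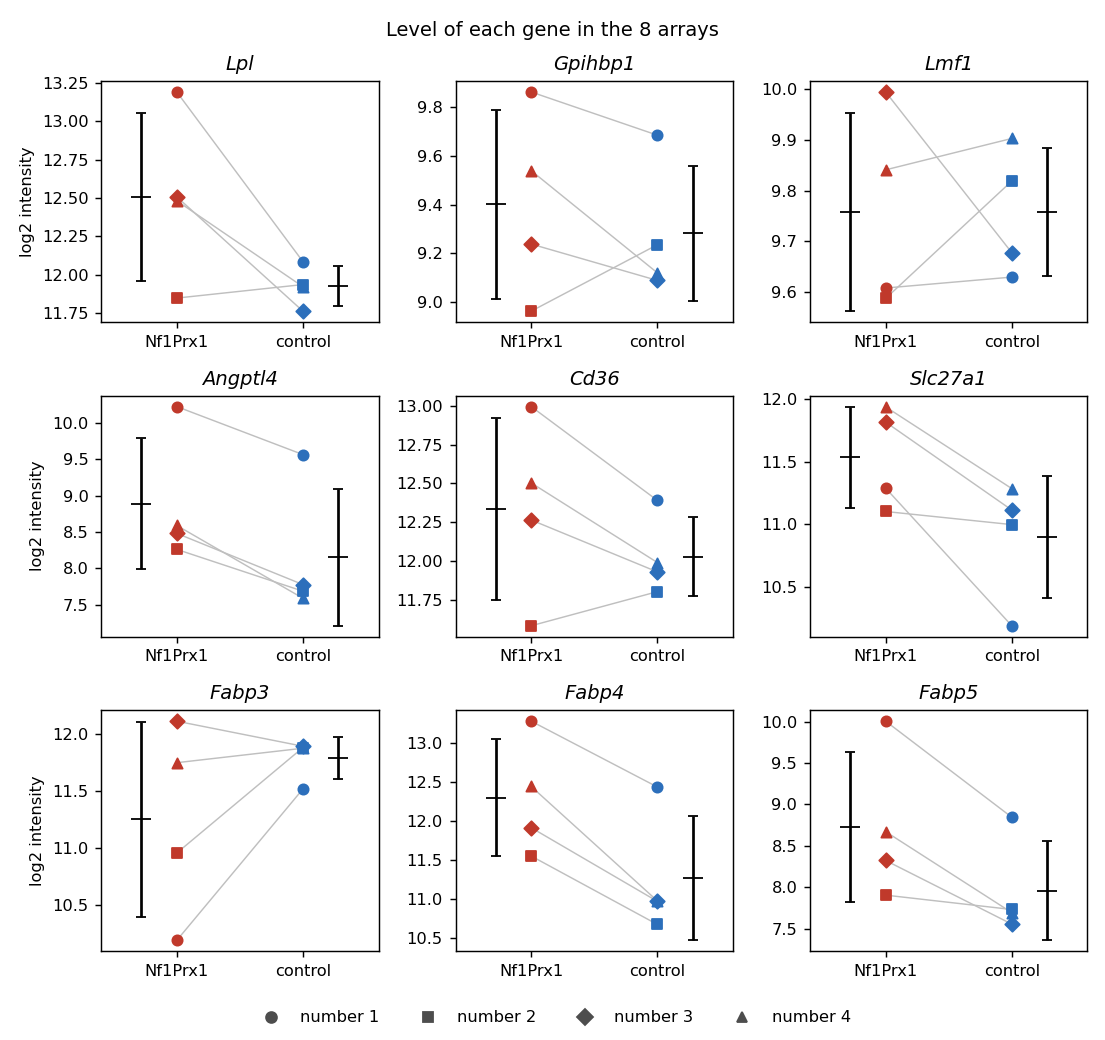
Log2 intensity of the 9 genes with a transcript cluster, 1 panel per gene with its own scale, Nf1Prx1 arrays in red and control arrays in blue. Marker shapes give the replicate number, grey lines join arrays of the same number, and black bars are the group mean ± SD (n = 4). In the panels of Lpl, Gpihbp1, Angptl4, Cd36, Fabp4 and Fabp5 both arrays numbered 1 are the highest of their group. All 4 grey lines run downward to control for Angptl4, Slc27a1, Fabp4 and Fabp5.

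Among the lipase and the proteins that fold, anchor and inhibit it, only the inhibitor Angptl4 passed the paired fit. Lpl, the hydrolase itself, had 13.19, 11.85, 12.51 and 12.48 in Nf1Prx1 1 to 4, against 12.09, 11.94, 11.76 and 11.92 in control 1 to 4. Nf1Prx1 1, 3 and 4 lay above all controls, and Nf1Prx1 2 lay inside their range. The means were 12.51 ± 0.55 and 11.93 ± 0.13 (SD, n = 4 each), a difference of 0.58 ± 0.24 (SE) with an adjusted p of 0.338 in the unpaired and 0.0886 in the paired fit. Lpl was also more spread among mutants, over 1.34 against 0.32 among controls. With a pair left out, the paired adjusted p of Lpl was 0.210, 0.0155, 0.253 and 0.225 without pairs 1, 2, 3 and 4, so that it passed only without pair 2.

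Gpihbp1, the endothelial anchor and carrier of the lipase, had 9.86, 8.96, 9.24 and 9.54 in Nf1Prx1 1 to 4, against 9.69, 9.24, 9.09 and 9.12 in control 1 to 4. The arrays numbered 1 were the highest of each group and the groups overlapped widely. The difference was 0.12 ± 0.21 (SE), with an adjusted p of 0.860 unpaired and 0.602 paired, and it turned to -0.036 without Nf1Prx1 replicate 1. Lmf1, the maturation factor of the lipase, had 9.61, 9.59, 9.99 and 9.84 in Nf1Prx1 1 to 4, against 9.63, 9.82, 9.68 and 9.90 in control 1 to 4. Neither group lay above the other, and only the pair numbered 3 was higher in the mutant. Its difference was 0.0004 ± 0.12 (SE), with an adjusted p of 0.999, and its sign changed under several alternatives.

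Angptl4, the secreted inhibitor of the lipase and a target of PPAR receptors, had 10.22, 8.26, 8.48 and 8.59 in Nf1Prx1 1 to 4, against 9.56, 7.69, 7.78 and 7.59 in control 1 to 4. Each Nf1Prx1 array lay above the control array of its number, and the groups overlapped only through control 1. The means were 8.89 ± 0.90 and 8.16 ± 0.94 (SD, n = 4 each), a difference of 0.73 with an SE of 0.53 unpaired and 0.10 paired. Its adjusted p was 0.604 in the unpaired fit and 0.0111 in the paired fit. Without both arrays numbered 1 the mutants spanned 8.26 to 8.59 and the controls 7.59 to 7.78, the difference was 0.76, and Angptl4 passed the unpaired test, with an adjusted p of 0.0468 (3 arrays a group). It passed the paired fit without pairs 1 or 2 (adjusted p 0.0272 and 0.0106) and did not pass it without pairs 3 or 4 (0.0555 and 0.0674).

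**Figure D2:**
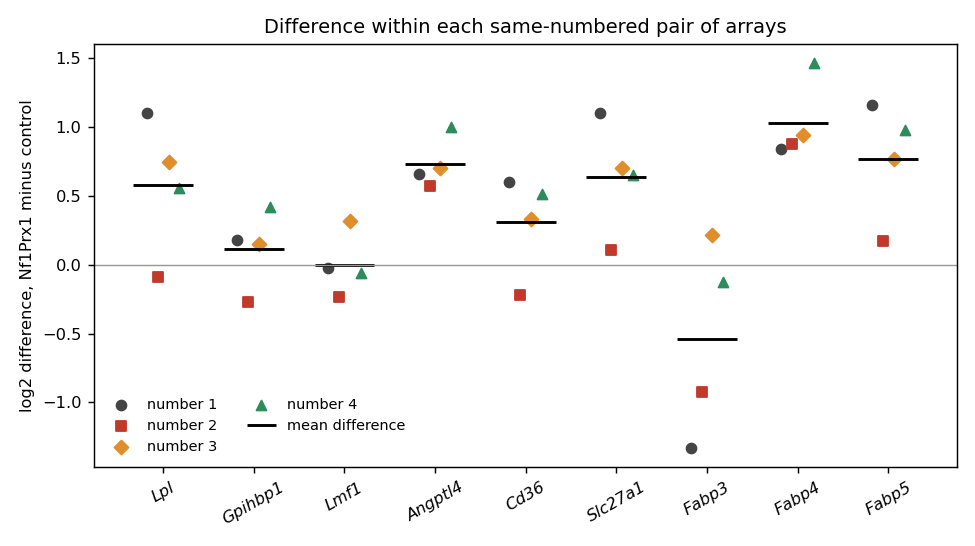
Difference in log2 intensity between the Nf1Prx1 array and the control array of the same number, for each of the 9 genes; the horizontal bar is the mean of the 4 differences. All 4 points lie above 0 for Angptl4, Slc27a1, Fabp4 and Fabp5, and the arrays numbered 2 give a difference below 0 for Lpl (-0.088), Gpihbp1 (-0.27), Lmf1 (-0.23), Cd36 (-0.22) and Fabp3 (-0.93).

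Higher levels in all 4 same-numbered pairs were found for 11.8% of all genes, and for 4 of the 9 genes here. The membrane proteins Cd36 and Slc27a1 parted at control 1, which was the highest control for Cd36 and the lowest for Slc27a1. For both genes the difference was highest in the pair numbered 1 and lowest in the pair numbered 2. Cd36, the scavenger receptor that binds long-chain fatty acids on endothelium, muscle fibres, adipocytes and macrophages, had 13.00, 11.58, 12.26 and 12.50 in Nf1Prx1 1 to 4, against 12.39, 11.80, 11.93 and 11.99 in control 1 to 4. Nf1Prx1 2 was the lowest of all 8 arrays and Nf1Prx1 1 the highest. The difference was 0.31 ± 0.27 (SE), 1.24-fold, with an adjusted p of 0.680 unpaired and 0.222 paired. With a pair left out, the paired adjusted p of Cd36 was 0.468, 0.0375, 0.414 and 0.506 without pairs 1, 2, 3 and 4.

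Slc27a1, the fatty acid transport protein of muscle and fat, had 11.29, 11.10, 11.82 and 11.94 in Nf1Prx1 1 to 4, against 10.19, 10.9965, 11.11 and 11.29 in control 1 to 4. Control 1 was the lowest array, whereas it was the highest control for Lpl, Gpihbp1, Angptl4, Cd36, Fabp4 and Fabp5. Nf1Prx1 3 and 4 lay above every control, and Nf1Prx1 1, at 11.2884, lay just above the highest, control 4 at 11.2852. The means were 11.54 ± 0.41 and 10.90 ± 0.49 (SD, n = 4 each), a difference of 0.64 ± 0.27 (SE) with an adjusted p of 0.342 unpaired and 0.0443 paired. Without the arrays numbered 1 the difference was 0.49. Slc27a1 passed the paired fit without pair 2 (adjusted p 0.0122) and did not pass it without pairs 1, 3 or 4 (0.105, 0.144 and 0.148).

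The promoters of the genes were read from RefSeq (GRCm38.p6), as windows from 250 bases before to 50 after the annotated start, and 5 of the 10 genes had a window: Cd36, Slc27a1, Fabp3, Lmf1 and Acsl1. The windows of Cd36, Slc27a1 and Fabp3 are shown because 2 of these genes had higher means and the other a lower one in Nf1Prx1 muscle. Capitals mark exact matches, on either strand, to the nuclear receptor half-site AGGTCA, the CCAAT box, the GC box GGGCGG and the A and T rich box TTTAAA; none of these overlapped another in the 3 windows. For Slc27a1 the third of 3 annotated starts is shown.
Cd36, chr5:17835847-17836146, minus strand: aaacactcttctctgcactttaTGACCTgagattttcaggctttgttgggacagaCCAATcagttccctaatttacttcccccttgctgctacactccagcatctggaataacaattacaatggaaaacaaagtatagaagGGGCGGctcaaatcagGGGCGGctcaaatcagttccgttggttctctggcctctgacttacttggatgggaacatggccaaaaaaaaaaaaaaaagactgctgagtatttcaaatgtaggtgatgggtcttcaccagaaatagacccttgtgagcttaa
Slc27a1, chr8:71570344-71570643, plus strand: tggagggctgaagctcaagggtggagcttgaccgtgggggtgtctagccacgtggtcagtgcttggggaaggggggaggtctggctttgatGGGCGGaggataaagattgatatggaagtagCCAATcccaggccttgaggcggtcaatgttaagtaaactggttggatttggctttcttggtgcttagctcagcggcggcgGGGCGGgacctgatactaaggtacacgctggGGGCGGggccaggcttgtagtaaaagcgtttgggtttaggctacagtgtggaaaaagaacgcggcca
Fabp3, chr4:130308488-130308787, plus strand: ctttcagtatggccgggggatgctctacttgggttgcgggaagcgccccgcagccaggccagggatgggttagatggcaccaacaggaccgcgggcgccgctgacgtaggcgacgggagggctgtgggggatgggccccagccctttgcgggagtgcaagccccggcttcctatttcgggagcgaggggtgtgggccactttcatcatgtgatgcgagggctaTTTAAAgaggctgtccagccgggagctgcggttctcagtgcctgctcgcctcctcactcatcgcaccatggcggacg

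Cd36 held 1 half-site, at -228 from the start and on the opposite strand, and it was the only one of the 5 genes with a match to AGGTCA in its windows. Of 32851 mouse promoter windows 16.3% held one. Its CCAAT box began at -195 and its GC boxes at -109 and -93. The Slc27a1 window shown held 3 GC boxes at -159, -48 and -17 and a CCAAT box at -128. The windows of its other starts differed: the first held a CCAAT box and no GC box, the second 1 GC box and no CCAAT box. GC boxes were in 35.7% and CCAAT boxes in 37.4% of all windows. Fabp3 held neither, but a TTTAAA box at -27, found in 13.2% of windows. The E-box CANNTG, present in 72.3% of windows and left in lower case, occurred in each of the 3. No window of the 5 genes held a direct repeat of AGGTCA with 1 base between, which PPAR and RXR receptors bind as a pair (0.0396% of windows), or the consensus site of the muscle factor MEF2 (0.11% of windows). A match or its lack in these windows describes their letters only.

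Of the 3 cytosolic carriers, Fabp4 and Fabp5 had higher means in Nf1Prx1 muscle and Fabp3 a lower one. Fabp3, the muscle form, had 10.19, 10.96, 12.11 and 11.75 in Nf1Prx1 1 to 4, against 11.52, 11.88, 11.89 and 11.88 in control 1 to 4. Nf1Prx1 1 and 2 lay below every control, Nf1Prx1 3 above every control, and controls 2 to 4 were nearly equal. The means were 11.25 ± 0.86 and 11.79 ± 0.18 (SD, n = 4 each), a difference of -0.54 ± 0.36 (SE), with an adjusted p of 0.567 unpaired and 0.212 paired. A further cluster annotated to Fabp3 gave -0.53. RefSeq lists a pseudogene of Fabp3 on chromosome 10, and signal from such a near-identical copy cannot be told apart here.

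Fabp4, the adipocyte form, had 13.27, 11.55, 11.91 and 12.44 in Nf1Prx1 1 to 4, against 12.43, 10.67, 10.97 and 10.97 in control 1 to 4. Each mutant array exceeded the control array of its number by 0.84 to 1.47, and the groups overlapped only through control 1. The means were 12.29 ± 0.75 and 11.26 ± 0.79 (SD, n = 4 each), a difference of 1.03 with an SE of 0.45 unpaired and 0.12 paired. The adjusted p was 0.361 in the unpaired fit and 0.00836 in the paired fit, and it stayed between 0.00869 and 0.0462 in the paired fits that left out each pair. Those fits called 2.13%, 3.45%, 0.582% and 0.191% of all genes as higher without pairs 1, 2, 3 and 4. Without both arrays numbered 1, Fabp4 had 11.55 to 12.44 in mutants and 10.67 to 10.97 in controls, 2.14-fold apart, with an unpaired adjusted p of 0.0784.

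Fabp5, the epidermal form, had 10.01, 7.90, 8.32 and 8.67 in Nf1Prx1 1 to 4, against 8.85, 7.73, 7.55 and 7.69 in control 1 to 4. The groups overlapped only through control 1, and Nf1Prx1 2 was the mutant array nearest to the controls. The difference was 0.77, 1.71-fold, with an SE of 0.45 unpaired and 0.16 paired, and an adjusted p of 0.497 unpaired and 0.0303 paired. A further cluster annotated to Fabp5 gave 0.78, and both may also read other copies of the gene. Fabp5 passed the paired fit without pair 2 (adjusted p 0.00669) and did not pass it without pairs 1, 3 or 4 (0.0813, 0.104 and 0.124). With the arrays numbered 1 left out, Angptl4, Fabp4 and Fabp5 were the 3 of the 9 genes whose mutant values all lay above the control values, as 8.03% of all genes did, and none of the 9 lay wholly below, as 15.7% of all genes did. The differences of Lpl, Cd36 and Fabp3 without those arrays were 0.41, 0.21 and -0.28, and none of these 3 passed either fit.

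The gap between the adipocyte and the muscle carrier differed by array. Relative to its mean over the controls, Fabp4 minus Fabp3 was 3.62, 1.12, 0.33 and 1.22 in Nf1Prx1 1 to 4, against 1.45, -0.68, -0.40 and -0.37 in control 1 to 4. Nf1Prx1 3 was the mutant array nearest to the controls numbered 2 to 4, and control 1 lay above 3 of the 4 mutants.

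Markers of other cells were set beside these values. Adipocyte markers had 7 of 9 measured genes passing as higher in the paired fit, none in the unpaired fit, and a median difference of 1.67; 2 of the 11 listed were not measured. Their mean was 12.27, 10.43, 10.87 and 11.29 in Nf1Prx1 1 to 4, against 11.27, 9.30, 9.11 and 9.41 in control 1 to 4. The mutant arrays stood in the same order as for Fabp4, and control 1 was again the highest control. The same held for the mean of the macrophage markers, at 8.72, 8.21, 8.475 and 8.65 in Nf1Prx1 1 to 4 and 8.60 in control 1. Among the adipocyte list, Cidec, a lipid droplet protein, was 4.72-fold higher (paired adjusted p 0.00476), Fasn, the fatty acid synthase, 4.25-fold (0.0158) and Lipe, hormone-sensitive lipase, 2.23-fold (0.00780). Gpd1 of that list had the opposite sign, at -0.080 (paired adjusted p 0.770), and Plin4, at 0.46, did not pass either (0.255). Adipoq, the adipocyte hormone, chosen here after its values were seen, had 13.16, 10.90, 11.15 and 11.60 in Nf1Prx1 1 to 4, against 11.80, 8.72, 8.32 and 8.55 in control 1 to 4. The part of adipocyte transcripts in the differences of Lpl, Angptl4, Cd36, Fabp4 and Fabp5 was not tested.

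Slow fibre markers had 5 of 10 genes passing as lower in the paired fit, none in the unpaired fit, with a median difference of -1.20. Their mean was 8.66, 8.40, 10.21 and 8.40 in Nf1Prx1 1 to 4, against 9.62, 9.89, 10.16 and 10.05 in control 1 to 4. Nf1Prx1 3 lay above every control, and the other 3 mutant arrays lay below every control. Myl3, a slow myosin light chain, was at 0.292 of the control level (paired adjusted p 0.0235), Tnnc1, the slow troponin C, at 0.313 (0.0272) and Myl2, another slow light chain, at 0.354 (0.0455). Their part in the Fabp3 values was not tested.

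Markers of endothelium, which makes Gpihbp1 and part of Cd36, had a median difference of -0.064, and 0 of 12 passed in either fit (1 at an unadjusted p under 0.05). Their mean was 9.04 to 9.61 in Nf1Prx1 and 9.30 to 9.62 in control arrays. Macrophage markers passed for 5 of 12 genes as higher in the paired fit (median 0.43), with Cd68, C1qb and Mertk among them, and their mean was 8.21 to 8.72 in Nf1Prx1 and 7.77 to 8.60 in control arrays. Fibroblast and progenitor markers passed for 4 of 9 as higher (median 0.45), Pdgfra and Col3a1 among them, and 0 as lower, with a mean of 9.69 to 10.30 in Nf1Prx1 and 9.40 to 10.31 in control arrays. Pi16, a marker of that list with the opposite sign, averaged 8.08 ± 0.21 in Nf1Prx1 and 8.57 ± 0.25 in control muscle (SD, n = 4 each) with no overlap of the groups, and did not pass (paired adjusted p 0.0745). Neutrophil and brown adipocyte markers passed for 0 of 10 and 0 of 8 genes in the limma fits (0 and 1 at an unadjusted p under 0.05), fast fibre markers for 0 of 12 (1 at that p) and sex-linked transcripts for 0 of 4 (0 at that p). Their part in the values of the uptake genes was not tested.

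**Figure D3:**
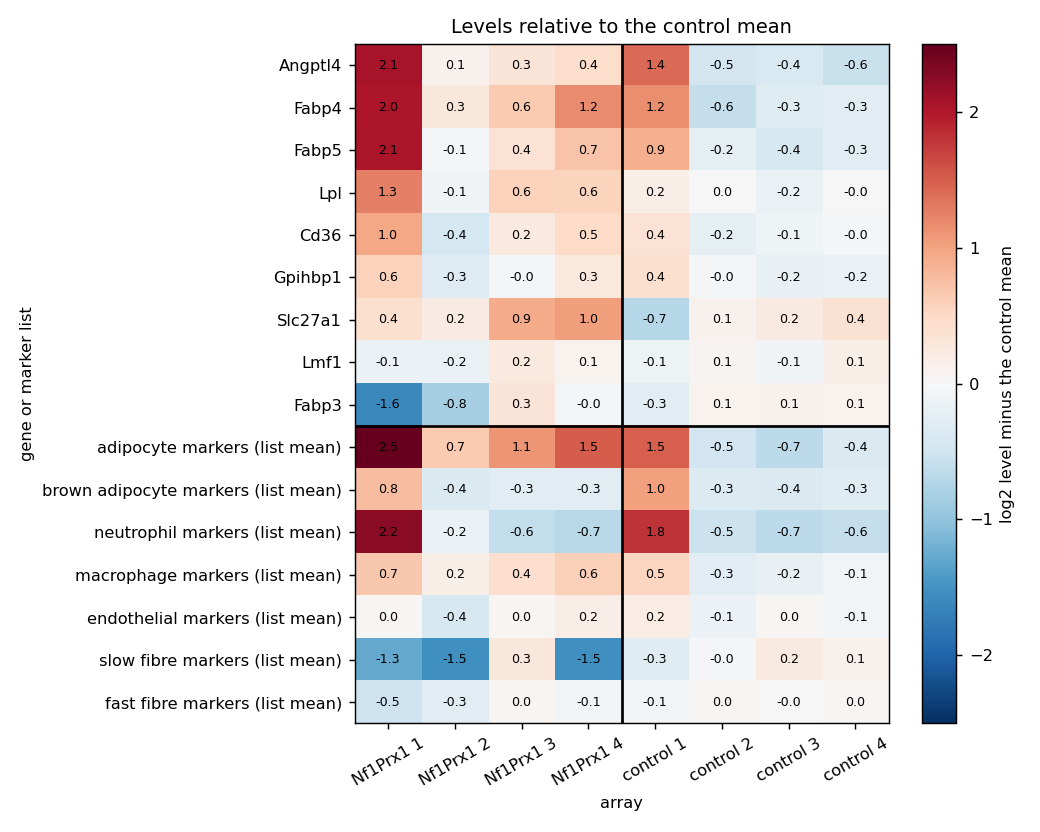
Log2 level minus the control mean in each of the 8 arrays, for the 9 genes (above the line) and for the means of 7 marker lists (below it), with Nf1Prx1 arrays left of the vertical line and control arrays right of it. Nf1Prx1 1 and control 1 are high for Angptl4, Fabp4, Fabp5, adipocyte, brown adipocyte and neutrophil markers. They are also the highest of their group for Lpl, Cd36, Gpihbp1 and macrophage markers. Slow fibre markers are low in Nf1Prx1 1, 2 and 4.

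Other genes of the pathway came from lists made for this comparison. Of the partners and regulators of lipoprotein lipase, 16 of 19 were measured, 4 passed as higher and 0 as lower in the paired fit, and the median difference was 0.15. Apoe, the ligand that remnant particles carry, was 1.87-fold higher (paired adjusted p 0.0160), Lrp1, a receptor that takes up such remnants, 1.54-fold (0.0139) and Apoc3, an apolipoprotein that inhibits the lipase, 1.58-fold (0.0193). None passed in the unpaired fit. The values of Lrp1 and Apoc3 did not overlap between the groups.

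Other fatty acid transport proteins, binding proteins and acyl-CoA synthetases split evenly. Of 18, 17 were measured, 1 passed as higher and 1 as lower in the paired fit, and the median difference was 0.013. Acsl5, a synthetase of mitochondria and endoplasmic reticulum, averaged 8.04 ± 0.55 in Nf1Prx1 and 7.57 ± 0.42 in control muscle (SD, n = 4 each; paired adjusted p 0.0296). Acsl6, which is also a synthetase, averaged 8.16 ± 0.27 in Nf1Prx1 and 8.58 ± 0.19 in control muscle (0.0409), and its groups did not overlap. Slc27a4, a relative of Slc27a1, differed by 0.13 and did not pass (paired adjusted p 0.376).

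Of 7 genes for the endothelial signals that set fatty acid transport, none passed in either limma fit (0 at an unadjusted p under 0.05), with a median difference of 0.0069. Meox2, a transcription factor of endothelium that with Tcf15 drives Cd36 expression there, differed by 0.47 (paired adjusted p 0.155). Tcf15 itself differed by -0.17 (0.3865). Nrp1, a receptor for VEGF-B, differed by 0.27 (0.175) and Flt1, another such receptor, by -0.29 (0.110).

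PPAR receptors and their fatty acid-responsive targets were measured for 11 of 13 genes, of which 1 passed as higher and 3 as lower in the paired fit, with a median difference of -0.20. Rxra, the partner receptor of the PPARs, averaged 9.51 ± 0.18 in Nf1Prx1 and 9.93 ± 0.16 in control muscle (SD, n = 4 each; paired adjusted p 0.0264). Rxrg, a further RXR, was at 0.726 of the control level (0.0232), and Mlycd, malonyl-CoA decarboxylase, at 0.745 (0.0303). Pparg, the PPAR receptor typical of adipocytes and the only gene of the list that passed as higher, averaged 10.24 ± 1.20 in Nf1Prx1 and 9.11 ± 0.97 in control muscle (paired adjusted p 0.0109); it was named here after its values were seen.

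The genes of the uptake set were also compared with each other over the 8 arrays, as a description of arrays that share the high pair numbered 1. Pearson's r was 0.96 between Fabp4 and Fabp5, 0.96 between Angptl4 and Fabp5, 0.94 between Angptl4 and Fabp4, 0.92 between Cd36 and Gpihbp1 and 0.90 between Cd36 and Lpl. Slc27a1 had r from -0.20 to 0.61 with the other 8, but by ranks Spearman's rho ran from 0.143 with Fabp3 to 0.524 with Cd36. Fabp3 had r from -0.72 with Angptl4 to 0.73 with Lmf1.

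Among 9968 genes of at least median level, those closest to each gene over the 8 arrays were named by Pearson's r. Closest to Lpl were Slc22a4 (0.99), Pnpla2 (0.99), the adipose triglyceride lipase, and Esyt1 (0.99). Fabp4 was followed by Aoc3 (1.00), G6pd2 (0.99) and Gstt1 (0.99), and Fabp5 by Nnmt (1.00), Hsd17b12 (0.99) and Gpt (0.99). Angptl4 was followed by Gpx1, H4c14 and H2ac15 (each 0.99) and Cd36 by Ilk, Parp12 and Sptlc2 (each 0.99). Fabp3 was closest to Coq10a (1.00), Dmpk (0.99) and Atp5a1 (0.99), the last a subunit of ATP synthase. Lower values were reached for Gpihbp1, with Hnrnpf (0.98), Fam126a (0.98) and Cavin3 (0.97), for Slc27a1, with Gabbr1, Tmem43 and Cpt1c (each 0.96), and for Lmf1, with Ctsf (0.95), Aqp4 (0.93) and Cntfr (0.93).

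The authors' deposited table gave the same genes by probe set, each a short stretch of the transcript, with group means, ranges and an F test. Probe sets are counted here in order of their number. Those of Fabp3 and Fabp5 have numbers next to both clusters of each gene, so their counts may mix copies of the gene. The p-values of that table fit 8 residual degrees of freedom, which implies 5 arrays per group where 4 are stated, and which arrays it holds could therefore not be settled. After adjustment over its 234873 probe sets, 0 of the 116 of the 10 genes passed, where 0.12% of all did, 0.0737% as higher and 0.0464% as lower. The probe sets of 1 gene read the same RNA and are not replicates.

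In the authors' deposited table, 14 of 15 Lpl probe sets were higher in Nf1Prx1, with a median difference of 0.67. An unadjusted p under 0.05 was given for 12 of the 15, beside 7.23% of all probe sets in that direction. The authors' deposited table places 1 of them, the third along the gene, in its list of higher probe sets, which holds 0.765% of all; its mean was 12.1 in Nf1Prx1 and 11.3 in control, 1.78-fold, with ranges of 11.7 to 12.7 and 11.1 to 11.5, F = 21.4, p = 0.00169 and an adjusted p of 0.117. The largest Lpl difference of the authors' deposited table was in the 11th probe set, dim at 6.9 in Nf1Prx1 and 5.8 in control, and the only negative one was in the last, at -0.12.

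In the authors' deposited table all 9 Fabp4 probe sets were higher in Nf1Prx1 (median 1.13, from 0.91 to 1.64), 8 of them with an unadjusted p under 0.05. For Fabp5, all 7 were higher (median 1.04, from 0.37 to 1.65) and all 7 had such a p in the authors' deposited table. For Cd36, all 19 were higher (median 0.46), with 7 at such a p and the largest difference, 1.14, in the ninth. For Angptl4, all 9 of the authors' deposited table were higher (median 0.66), but they ran from 0.20 in the fourth to 1.85 in the sixth, and only the sixth had such a p, at 0.0405 unadjusted. The sixth had a mean of 10.6 in Nf1Prx1 and 8.7 in control, with ranges of 9.7 to 12.3 and 7.1 to 10.8 in the authors' deposited table. For these 4 genes no probe set passed after adjustment.

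In the authors' deposited table all 15 Slc27a1 probe sets were higher (median 0.57, from 0.19 to 0.96), none with an unadjusted p under 0.05. For Acsl1, which makes acyl-CoA from imported fatty acids and was measured only there, all 22 were higher (median 0.40, from 0.20 to 0.79), again none with such a p. The largest Acsl1 difference of the authors' deposited table was in the tenth probe set, with a mean of 10.9 in Nf1Prx1 and 10.1 in control, overlapping ranges and an unadjusted p of 0.0583. For Gpihbp1 all 4 were higher by 0.079 to 0.20, for Lmf1 4 were higher and 6 lower (from -0.24 to 0.15), and for Fabp3 all 6 were lower (from -0.46 to -0.049) in the authors' deposited table, none with such a p, beside 7.42% of all its probe sets in the lower direction.

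**Figure D4:**
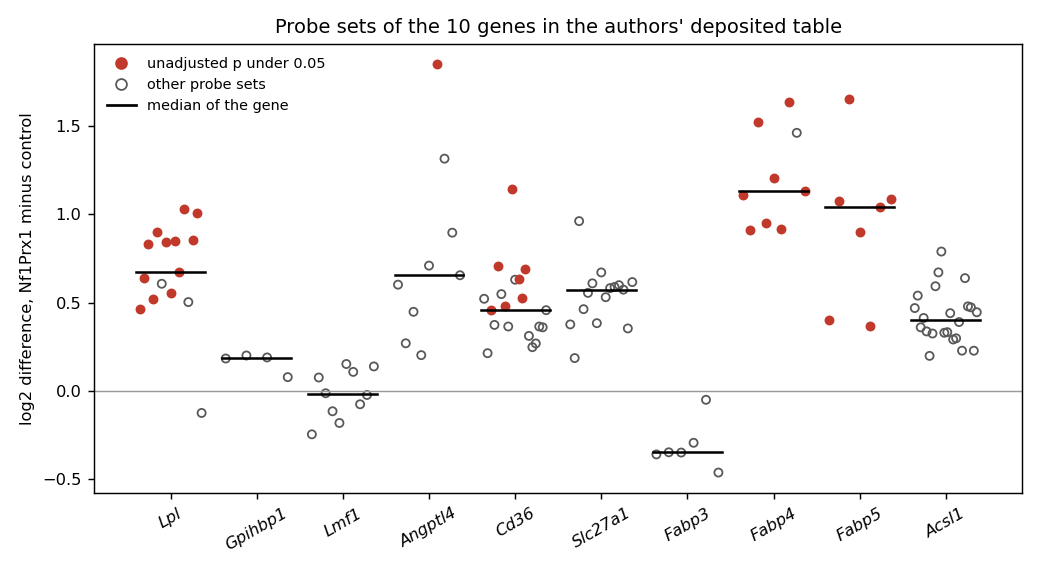
Log2 difference, Nf1Prx1 minus control, of the 116 probe sets of the 10 genes in the authors' deposited table, by probe set number within each gene. For Fabp3 and Fabp5 the numbers lie next to those of both clusters of the gene. Filled red points have an unadjusted p under 0.05 and black bars are gene medians. The filled points are those of Lpl (12), Angptl4 (1), Cd36 (7), Fabp4 (8) and Fabp5 (7), and all Fabp3 points lie below 0.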

How the data were processed

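Total RNA of triceps from 4 Nf1Prx1 and 4 control mice was hybridised to 1 array per animal. Per the submitters' processing notes, the authors made the log2 intensities with RMA in the Affymetrix Expression Console; versions are not given in the sources used here. Of 35556 transcript clusters, 21789 had 1 gene symbol, and the cluster with the highest mean stood for a gene (19938 genes, no filter on dim genes). The comparison used lmFit and eBayes of limma 3.58.1 (R 4.3.3), unpaired and with the replicate number as a block, and p-values were adjusted by Benjamini-Hochberg over all genes, at a threshold of 0.05. The number of arrays limits the precision. Same-numbered arrays correlated at 0.71, 0.57, 0.39 and 0.30 in their deviations from the group means, others at -0.53 to 0.30; the pairing comes from the data, not from a stated design.

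Per the file headers, the authors' deposited table holds group means in log2 units, a p-value, a ratio of control over mutant and the F and T scores per probe set; adjustment over all its probe sets was added. The members, the 13 lists and the tests were chosen with earlier results of these data known. Named are all members, the 3 genes of each list with the smallest unpaired p (most marker lists are given by counts, and Adipoq and Pparg were added after their values were seen), the 3 genes most like each member and the extreme probe sets of each member. Alternatives left out arrays or pairs and changed the normalization, weights, filter and covariates. Figures were drawn with matplotlib 3.10.9. Clusters without a single symbol were not used.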

Additional observations from a re-analysis of the deposited data

Results flagged for a closer look

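Of 18 sets of 4 arrays (9 genes in 2 groups), 4 held an array far from the other 3. For a single set chance gives about 1 in 20. The sets share the same arrays and their genes are correlated, so that rate cannot be set against the count. Angptl4 was 10.22 in Nf1Prx1 1, far above the other mutants at 8.26 to 8.59, and 9.56 in control 1, far above the other controls at 7.59 to 7.78. Fabp5 was 8.85 in control 1, above the other controls at 7.55 to 7.73. Fabp3 was 11.52 in control 1, below the other controls at 11.88 to 11.89. All 4 are arrays numbered 1, which also had the high means of the neutrophil and brown adipocyte lists. The part of those transcripts in these values was not tested.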

How the results depend on the processing

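With the replicate block, 1667 genes passed (670 higher, 997 lower) and 4 of the 9 uptake genes, against 0 and 0 without it. Leaving out a pair from that fit gave 50 to 1202 genes (719, 1202, 206 and 50 without pairs 1 to 4) and 1 to 6 uptake genes (2, 6, 1 and 1); Fabp4 passed each time. Without both arrays numbered 1, the unpaired fit called 96 genes and 1 uptake gene, Angptl4. Quantile normalization called 5 genes and 0 uptake genes. Array weights called 3070 genes (1424 higher, 1646 lower) and 5 uptake genes, Lpl, Cd36, Slc27a1, Fabp4 and Fabp5. The arrays counted unequally in that fit. The weights were 4.42 for Nf1Prx1 4, 3.73 for control 4 and 2.24 for Nf1Prx1 3. Nf1Prx1 2, Nf1Prx1 1 and control 1 had 0.265, 0.351 and 0.364. Leaving out 1 array called 0 to 3 genes, the 3 without Nf1Prx1 replicate 3, and 0 uptake genes. The cause of these changes was not tested. The difference of Lmf1 turned to -0.042 and -0.026 without control replicates 1 and 3, to -0.079 and -0.027 without Nf1Prx1 replicates 3 and 4, to -0.11 in the paired fit without pair 3 and to -0.014 with sex-linked transcripts as a covariate; over the fits without 1 array it ran from -0.079 to 0.057. Gpihbp1 ran from -0.036 (without Nf1Prx1 replicate 1) to 0.26 over those fits. The other 7 genes kept their direction under all 20 alternatives run, with ranges of 0.35 to 0.80 for Lpl, 0.29 to 1.20 for Angptl4, 0.089 to 0.56 for Cd36, 0.41 to 0.82 for Slc27a1, -0.83 to -0.10 for Fabp3, 0.70 to 1.42 for Fabp4 and 0.34 to 1.07 for Fabp5. Leaving out Nf1Prx1 replicate 1 alone gave 0.35 for Lpl, 0.29 for Angptl4, 0.089 for Cd36, -0.19 for Fabp3, 0.70 for Fabp4 and 0.34 for Fabp5. Leaving out control replicate 1 gave 1.20 for Angptl4 and 0.41 for Slc27a1, leaving out Nf1Prx1 replicate 2 gave 0.56 for Cd36, leaving out Nf1Prx1 replicate 3 gave -0.83 for Fabp3, and array weights gave -0.10 for Fabp3. No alternative called a probe set of the 10 genes in the authors' deposited table.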
